A study of Homo sapiens with 4 samples.

Results

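The Oct4/GFP (+) and the Nestin/GFP (+) cells are a pair of reporter populations of H1299, a line of human non-small cell lung cancer cells. In the Oct4/GFP (+) cells a stably transfected vector carries the Oct4 promoter in front of GFP, and in the Nestin/GFP (+) cells the vector carries the nestin promoter. The GFP (+) cells were selected by fluorescence-activated cell sorting. All cells were grown for 24 h in medium with 5% fetal bovine serum, and total RNA was labeled with Cy3 and hybridized to 1 Phalanx Human OneArray per population. The series holds 4 arrays, and the other pair, of Oct4/GFP (−) and Nestin/GFP (−) cells, is used here to check single spots. The labels call the GFP (−) cells negative for the reporter vector, and they do not say whether they were sorted from the transfected lines. The paper describes sorting its transfected lines into cells with high GFP and cells without GFP. Its array methods name only the GFP (+) cells. The genes compared are those of the 17397 probes, of 30968, that carry 1 gene symbol, which gives 15240 genes. A GFP (+) cell is one in which the vector's promoter is active, so the level of the endogenous gene is a separate measurement.

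With 1 array per population there is no spread between replicates, and no test or p-value can be given for any difference below. Values are intensities on a linear scale, normalized so that the 4 arrays share 1 distribution, and differences are log2 of Oct4/GFP (+) minus Nestin/GFP (+). A probe was counted as measured when its deposited intensity was over 3 times the noise SD of its array. A gene was above this limit on an array when at least 1 of its probes was. Where a gene was under it on 1 of the arrays the fold is a lower bound, given as at least so many fold. Where it was under on both no fold is given. In genes with several probes, a fold printed without a bound can still include a probe set to the floor, as in HSPA8, COX7B and SF3B3. Of the genes, 6466 could be compared and 4126 of them were above the limit on both arrays. RNA was taken from whole populations, so fewer cells that express a gene and less RNA per cell cannot be told apart.

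Oct4 (POU5F1) is a transcription factor of pluripotent cells, and nestin is an intermediate filament protein of neural progenitors. Both are used as markers of stem-like cancer cells. Bone morphogenetic proteins (BMPs) bind type I and type II receptors, which activate Smad proteins, and the ID genes are among the genes they induce. ID proteins block the DNA binding of basic helix-loop-helix transcription factors. Immediate early genes such as FOS and EGR1 are switched on within minutes of a growth factor or stress signal without new protein synthesis. Oxidative phosphorylation is carried out by respiratory complexes and the ATP synthase of the inner mitochondrial membrane, and most of their subunits are made from nuclear genes.

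The stretches of 250 bases before the transcription start of genes that the results turn on are given below, from RefSeq on GRCh38.p14, 5′ to 3′ on the strand of the gene. NES is shown because its promoter type drives the Nestin/GFP reporter, although the stretch cloned in the vector was not looked up here. ID1 and ID3 are shown because their differences had opposite signs, FOS, EGR1 and DUSP1 because they are immediate early genes that were lower in Oct4/GFP (+), and ATP5F1C, listed as ATP5C1 on the array, because it stands for the respiratory subunits. Capitals mark TATAAA in ID1 and ID3, TGACG in FOS, EGR1 and DUSP1, and GCATGCG in ATP5F1C, each searched on both strands with overlapping matches kept.
NES (chr1:156677408-156677657, minus strand): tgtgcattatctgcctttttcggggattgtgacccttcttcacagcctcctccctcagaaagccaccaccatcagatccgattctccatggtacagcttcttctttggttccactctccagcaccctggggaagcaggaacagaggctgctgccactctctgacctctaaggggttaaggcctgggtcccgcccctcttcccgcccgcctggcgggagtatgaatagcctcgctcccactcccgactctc
ID1 (chr20:31605039-31605288, plus strand): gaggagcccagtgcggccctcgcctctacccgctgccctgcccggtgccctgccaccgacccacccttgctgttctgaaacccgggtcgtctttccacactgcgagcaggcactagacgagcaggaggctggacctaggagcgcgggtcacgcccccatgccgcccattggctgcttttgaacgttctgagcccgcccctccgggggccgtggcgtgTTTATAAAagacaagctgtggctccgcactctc
ID3 (chr1:23559502-23559751, minus strand): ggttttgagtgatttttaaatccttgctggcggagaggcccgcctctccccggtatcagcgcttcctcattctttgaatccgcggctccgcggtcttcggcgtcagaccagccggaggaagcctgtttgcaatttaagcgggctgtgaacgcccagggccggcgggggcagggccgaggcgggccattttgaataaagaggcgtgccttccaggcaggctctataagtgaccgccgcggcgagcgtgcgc
FOS (chr14:75278578-75278827, plus strand): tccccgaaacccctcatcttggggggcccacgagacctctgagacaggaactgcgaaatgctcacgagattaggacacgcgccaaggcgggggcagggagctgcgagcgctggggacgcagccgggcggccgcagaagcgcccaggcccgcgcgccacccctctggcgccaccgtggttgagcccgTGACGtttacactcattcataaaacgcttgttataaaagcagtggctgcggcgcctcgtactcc
EGR1 (chr5:138465229-138465478, plus strand): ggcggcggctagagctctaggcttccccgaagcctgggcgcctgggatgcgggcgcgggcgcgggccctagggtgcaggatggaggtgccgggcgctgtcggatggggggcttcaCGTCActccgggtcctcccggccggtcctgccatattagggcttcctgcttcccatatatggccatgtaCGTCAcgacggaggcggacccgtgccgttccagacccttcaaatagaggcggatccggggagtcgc
DUSP1 (chr5:172771196-172771445, minus strand): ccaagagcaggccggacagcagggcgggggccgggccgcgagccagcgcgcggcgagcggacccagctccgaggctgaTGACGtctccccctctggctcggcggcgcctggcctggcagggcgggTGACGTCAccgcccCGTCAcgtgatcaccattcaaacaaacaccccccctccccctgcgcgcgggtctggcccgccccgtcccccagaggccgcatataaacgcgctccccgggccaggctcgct
ATP5F1C (chr10:7787927-7788176, plus strand): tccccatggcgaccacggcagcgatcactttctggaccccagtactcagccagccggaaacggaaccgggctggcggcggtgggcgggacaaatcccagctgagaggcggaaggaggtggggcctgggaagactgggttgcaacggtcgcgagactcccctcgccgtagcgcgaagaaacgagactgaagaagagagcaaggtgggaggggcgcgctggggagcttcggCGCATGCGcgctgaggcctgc

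TGACG, the core of the cAMP response element, was in the stretches of FOS, EGR1 and DUSP1 and in 21.7% of 27305 promoters of the same length. Of 20 immediate early genes with a stretch in the table, 13 held it. The nearest match to the start began 64 bases before it in FOS, 66 in EGR1 and 111 in DUSP1. The TATA box letters TATAAA were in 11.1% of all promoters, with an overlapping pair of matches that began 33 and 31 bases before the start of ID1 and no match in the stretch of ID3. GCATGCG, the core of the site for nuclear respiratory factor 1, was in 3.57% of all promoters and in 13 of 64 oxidative phosphorylation genes. These matches describe the letters only, and no binding was measured.

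The arrays differed in brightness. The median deposited intensity was 7 on each GFP (+) array, but the 95th percentile was 107 in Oct4/GFP (+) and 273 in Nestin/GFP (+), and 26.3% to 27.9% of the probes were above the limit on these arrays. The 95th percentile was 55.0 in Oct4/GFP (−), the dimmest array, and 205 in Nestin/GFP (−). Above the limit were 19.5% of the probes in Oct4/GFP (−) and 29.1% in Nestin/GFP (−). The scaling between the arrays therefore sets part of every difference. After normalization the median over the measured genes was 0.056 (log2), and on the values as deposited it was -0.96. Levels of the 2853 genes above the limit on all 4 arrays correlated with r = 0.789 between Oct4/GFP (+) and Nestin/GFP (+), r = 0.832 between Oct4/GFP (+) and Oct4/GFP (−) and r = 0.919 between Nestin/GFP (+) and Nestin/GFP (−). For Oct4/GFP (−) r was 0.834 with Nestin/GFP (+) and 0.828 with Nestin/GFP (−), and between Oct4/GFP (+) and Nestin/GFP (−) it was 0.806. Oct4/GFP (−) was thus about as close to the Nestin arrays as to Oct4/GFP (+). These correlations are across genes, which are not independent replicates. Among markers of H1299, VIM, the vimentin filament protein of mesenchymal-like cells, was at 394 in Oct4/GFP (+) and 907 in Nestin/GFP (+). CDH2, or N-cadherin, was at 162 in Oct4/GFP (+) and 95.8 in Nestin/GFP (+). The other mesenchymal-like markers, FN1, ZEB1, SNAI2 and TWIST1, were under the limit on all 4 arrays. The epithelial markers CDH1, KRT7, KRT19 and TACSTD1 were under the limit on all 4 arrays. Of 7 lung lineage markers, NKX2-1, SFTPC, NAPSA and SCGB1A1 were under it on all 4 arrays, while SFTPB, FOXJ1 and TP63 were above it on all 4, and their summed level was 323 in Oct4/GFP (+) and 167 in Nestin/GFP (+). Of the leukocyte, endothelial and fibroblast markers with a probe, 0 of 13 were above the limit in Oct4/GFP (+) and 2 of 13, COL1A1 and DCN, in Nestin/GFP (+). Their summed level was 0 in Oct4/GFP (+) and 39.0 in Nestin/GFP (+).

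NES and SOX2 were not above the limit on any of the 4 arrays, and NANOG was not either. The deposited intensity of the NES probe was 5 in Oct4/GFP (+), -4 in Nestin/GFP (+), 2 in Oct4/GFP (−) and 20 in Nestin/GFP (−). The Nestin/GFP (+) cells thus had no measurable nestin signal at this probe, and the depth of 1 array does not show that the RNA was absent. A level of POU5F1 was not analysed here.

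In all, 1899 of the 6466 genes compared differed by more than 2-fold between the GFP (+) arrays, which is 29.4%. Of these, 859 (13.3%) were higher and 1040 (16.1%) were lower in Oct4/GFP (+). Among the genes above the limit on both arrays 23.9% passed 2-fold, 509 (12.3%) higher and 476 (11.5%) lower. Between the GFP (−) arrays 33.6% of 4999 genes passed 2-fold, 21.2% higher and 12.4% lower in Oct4/GFP (−). On the values as deposited the split was 159 higher and 2811 lower, and with centring on the probes above the limit on all 4 arrays it was 1313 higher and 788 lower. The direction of the whole set thus depends on the scaling, and a gene is read here against the others. Of 50 higher genes named in the text, 21 came within 2-fold or changed sign on the values as deposited, and none of the 76 lower ones did. The median over the measured genes is 0.056 after normalization and -0.96 as deposited, which moves differences down. Lower calls are therefore kept by the scale itself, and this does not make them firmer than the higher ones. Of the 21 higher genes, those not marked so below are CXCL5, JAG1 and TMEM159.

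**Figure D1:**
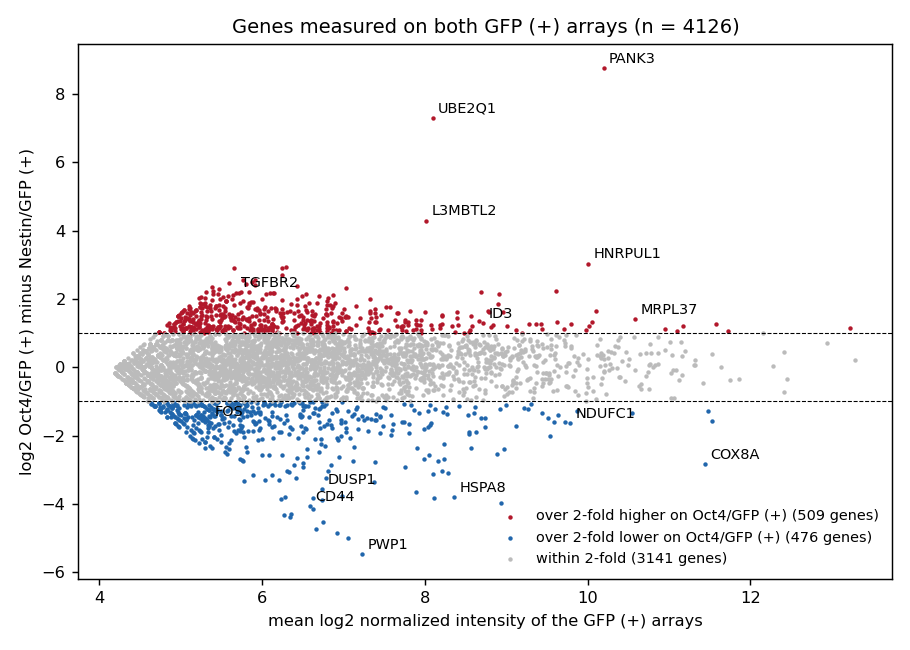
Log2 difference of Oct4/GFP (+) minus Nestin/GFP (+) (vertical axis) against the mean log2 normalized intensity of the GFP (+) arrays (horizontal axis) for the 4126 genes above the limit on both, each point 1 gene. The 509 genes over 2-fold higher and the 476 over 2-fold lower lie outside the dashed lines, and the dim end is cut at an angle because no level can lie under the limit.

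The share past 2-fold did not follow brightness in 1 direction. It was 20.5% in the dimmest of 4 equal bins of the measured genes, 31.7% and 25.1% in the middle bins and 18.1% in the brightest, where levels lay between 143 and 10018. The SD of the difference was 0.768, 1.01, 1.06 and 0.935 (log2) in the same order from dim to bright. The bins hold only genes above the limit on both arrays, which leaves out large differences at the dim end. Of the 2340 genes with a bound only, 39.1% passed 2-fold. The shares of dim and bright genes are therefore not alike in kind, but many of the brightest genes did pass 2-fold.

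Different probes of 1 gene gave a check that does not use another array. For 276 genes several probes were above the limit on both GFP (+) arrays. The log2 difference of the first and the last probe of a gene correlated with r = -0.00903 over these genes, and with r = -0.159, 0.0407 and 0.0831 in 3 bins of increasing brightness. The SD between probes of 1 gene was 0.930 (log2). At least 1 probe passed 2-fold in 123 of the genes, all probes passed in the same direction in 7, and probes passed in opposite directions in 8. Agreement was thus no more frequent than disagreement. Over all genes above the limit on both arrays 12.3% were higher and 11.5% lower past 2-fold. Over all genes above the limit on both arrays the SD of the difference was 0.950, about the same as between probes of 1 gene. The difference of a single probe thus did not predict the difference at another probe of its gene. Most genes on the array have 1 probe, so most folds given below describe that probe and may not hold for the gene.

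**Figure D2:**
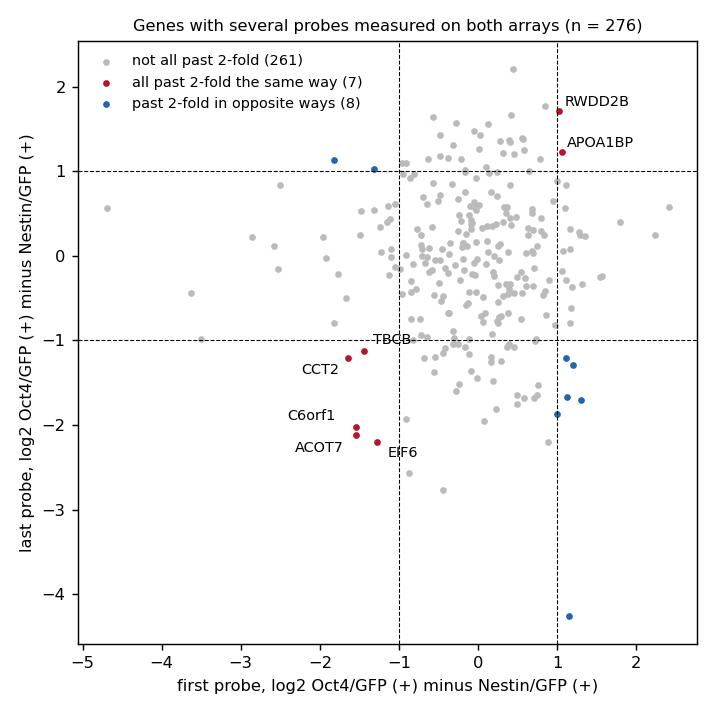
Log2 difference of Oct4/GFP (+) minus Nestin/GFP (+) at the first probe (horizontal axis) and the last probe (vertical axis) of each of 276 genes with several probes measured on both arrays. The 7 genes whose probes all passed 2-fold the same way are named, and the 8 with probes past 2-fold in opposite ways lie in the other corners.

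The genes with all probes past 2-fold were EIF6, CCT2, TBCB, ACOT7 and C6orf1, which were lower in Oct4/GFP (+), and APOA1BP and RWDD2B, which were higher. They are listed because they met this rule, and agreement in so few genes does not make their differences firmer. EIF6 keeps the large ribosomal subunit from joining the small one. Its first probe was at 468 in Oct4/GFP (+) and 1140.3 in Nestin/GFP (+), and its second probe at 117 in Oct4/GFP (+) and 538 in Nestin/GFP (+), which is 2.43-fold and 4.61-fold lower. On the GFP (−) arrays the first probe of EIF6 was at 1116 in Oct4/GFP (−) and 1015 in Nestin/GFP (−), so Oct4/GFP (+) was the low array.

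CCT2, a subunit of the chaperonin that folds actin and tubulin, was at 31.0 and 366 for its probes in Oct4/GFP (+), against 96.7 and 845 in Nestin/GFP (+). TBCB, a chaperone of alpha-tubulin, was at 992 and 360.0 in Oct4/GFP (+), against 2696 and 787 in Nestin/GFP (+). Both genes were 2.19-fold to 3.12-fold lower at every probe. ACOT7, an acyl-CoA thioesterase, was at 24.7 and 31.0 in Oct4/GFP (+), against 72.0 and 135 in Nestin/GFP (+). C6orf1, now SMIM29, a small membrane protein, was 2.90-fold and 4.06-fold lower.

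APOA1BP, now NAXE, an epimerase that repairs damaged NAD(P)H, was at 154 and 142 in Oct4/GFP (+), against 74.2 and 61.0 in Nestin/GFP (+). RWDD2B, which holds an RWD domain, was at 192 and 126 in Oct4/GFP (+), against 94.3 and 38.5 in Nestin/GFP (+). On the values as deposited both lost the 2-fold difference, with log2 values of -0.078 for APOA1BP and 0.17 for RWDD2B. The opposite-way genes included RPS13, a ribosomal protein, which was 3.54-fold lower at one probe and 2.19-fold higher at the other.

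The levels on the GFP (−) arrays show which of the GFP (+) arrays stood apart. Among the 1040 genes lower in Oct4/GFP (+), 306 (29.4%) had Oct4/GFP (+) over 2-fold under each of the other 3 arrays, and 59 (5.67%) had Nestin/GFP (+) over 2-fold above each of them. Of the 859 higher genes, 134 (15.6%) had Oct4/GFP (+) over 2-fold above the rest and 78 (9.08%) had Nestin/GFP (+) over 2-fold under the rest. The same direction past 2-fold between the GFP (−) arrays was seen for 197 of the lower and 220 of the higher genes. None of these patterns applied to 525 lower and 445 higher genes. Probes over 8-fold under each of the other 3 arrays numbered 82 in Oct4/GFP (+) and 1 in Nestin/GFP (+). They numbered 0 in Oct4/GFP (−) and 0 in Nestin/GFP (−), so at 8-fold nearly all low single spots belong to the Oct4/GFP (+) array. At 2-fold these counts were 456 in Oct4/GFP (+), 139 in Nestin/GFP (+), 213 in Oct4/GFP (−) and 69 in Nestin/GFP (−). Lower RNA and a failed spot cannot be told apart for a gene with 1 such probe.

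For the 2853 genes above the limit on all 4 arrays, the difference Oct4/GFP (+) minus Nestin/GFP (+) and the difference Oct4/GFP (−) minus Nestin/GFP (−) come from separate arrays. They correlated with r = 0.294 and rho = 0.312 across genes, which share probes and the normalization. Of these genes 13.3% were higher and 11.7% were lower past 2-fold between the GFP (+) arrays. Of the 379 higher genes, 129 (34.0%) were also past 2-fold on the higher side in the GFP (−) pair, against 14.5% of all 2853 genes. Of the 333 lower genes, 64 (19.2%) were also lower there, against 9.99% of all. The reporter line and any handling it shared between its GFP (+) and GFP (−) cells cannot be told apart here.

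**Figure D3:**
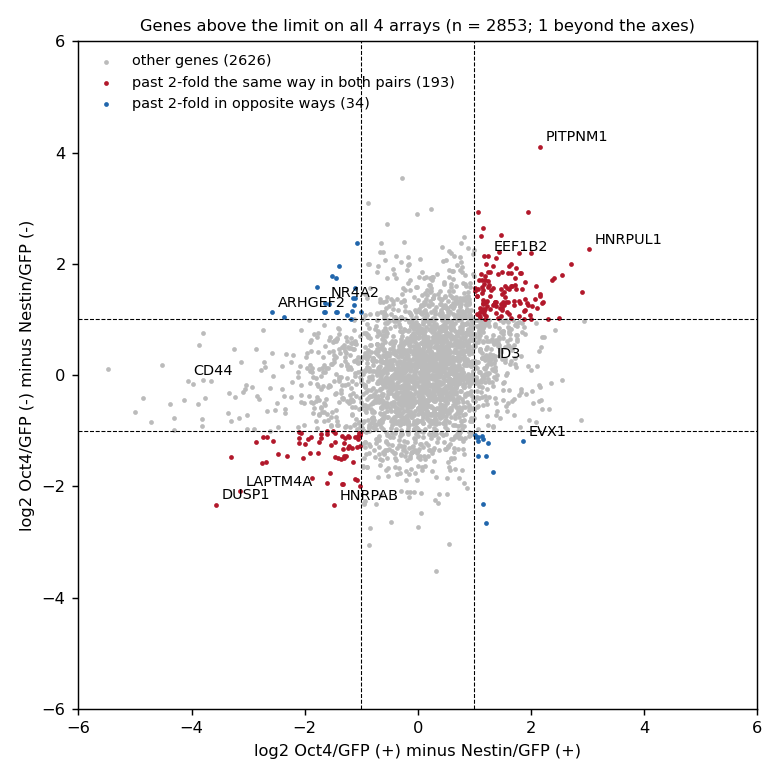
Log2 difference between the GFP (+) arrays (horizontal axis, Oct4 minus Nestin) and between the GFP (−) arrays (vertical axis, Oct4 minus Nestin) for the 2853 genes above the limit on all 4 arrays, each point 1 gene, with 1 gene beyond the axes. The 193 genes past 2-fold the same way in both pairs outnumber the 34 past 2-fold in opposite ways.

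DUSP1, a phosphatase that switches off MAP kinases and an immediate early gene, had the largest GFP (+) difference among the genes above the limit on all 4 arrays that were lower in both pairs. It was at 31.0 in Oct4/GFP (+) and 366 in Nestin/GFP (+), and at 42.5 in Oct4/GFP (−) and 214 in Nestin/GFP (−), so both Oct4 arrays lay under both Nestin arrays. The difference was -3.56 in the GFP (+) pair, 11.8-fold, and -2.33 in the GFP (−) pair. LAPTM4A, a lysosomal membrane protein, was at 23.5 in Oct4/GFP (+) and 208 in Nestin/GFP (+), and at 56.0 in Oct4/GFP (−) and 238 in Nestin/GFP (−). POLR2D, a subunit of RNA polymerase II, was 9.83-fold lower in the GFP (+) pair, with levels of 23.5 in Oct4/GFP (+), 231 in Nestin/GFP (+), 93.5 in Oct4/GFP (−) and 259.9 in Nestin/GFP (−). For POLR2D the Oct4/GFP (+) array was also 3.98-fold under the nearest other array.

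SCP2, a sterol carrier protein of peroxisomes, C1orf210 and MORF4L1, a chromatin reader of the NuA4 acetyltransferase, were 6.42-fold, 6.74-fold and 4.10-fold lower in the GFP (+) pair. The first and the last probe of MORF4L1 disagreed there, with log2 differences of -3.63 and -0.44. KIAA1462, now JCAD, a cell junction protein, was 3.67-fold lower with nearly equal differences of -1.87 in the GFP (+) pair and -1.86 in the GFP (−) pair. HNRPAB, an RNA-binding protein, was at 247 in Oct4/GFP (+) and 689.8 in Nestin/GFP (+), and at 112 in Oct4/GFP (−) and 567 in Nestin/GFP (−). NDUFB1, a subunit of respiratory complex I, was at 122 in Oct4/GFP (+) and 373 in Nestin/GFP (+), and at 72.5 in Oct4/GFP (−) and 279.5 in Nestin/GFP (−). Both Oct4 arrays lay under both Nestin arrays for each of these genes. The tenth, TMCO1, a calcium channel of the endoplasmic reticulum, was 2.92-fold lower, but its brightest probe gave a log2 difference of 0.11.

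HNRPUL1, now HNRNPUL1, an RNA-binding protein of DNA repair, was first, by the same measure, among the genes above the limit on all 4 arrays that were higher in both pairs. It was at 2942 in Oct4/GFP (+) and 360.0 in Nestin/GFP (+), and at 1485 in Oct4/GFP (−) and 309 in Nestin/GFP (−), a difference of 3.03 (8.17-fold) in the GFP (+) pair and 2.27 in the GFP (−) pair. PITPNM1, a phosphatidylinositol transfer protein, was at 150.2 in Oct4/GFP (+) and 33.5 in Nestin/GFP (+), and at 486 in Oct4/GFP (−) and 28.1 in Nestin/GFP (−). SAMD14, which holds a sterile alpha motif, was at 193 in Oct4/GFP (+) and 29.8 in Nestin/GFP (+), and at 205 in Oct4/GFP (−) and 51.1 in Nestin/GFP (−). The Oct4 arrays lay above the Nestin arrays for all 3 genes.

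NADK, the kinase that makes NADP, was 4.0-fold higher in the GFP (+) pair, and ROM1, a membrane protein of photoreceptor discs, was 5.30-fold higher. C15orf29, now KATNBL1, a katanin regulator, was 5.88-fold higher and CLEC4C, a lectin of plasmacytoid dendritic cells, 3.87-fold higher. UTP20, a factor of ribosome assembly, ZNF542, now listed as a pseudogene, and PHF15, now JADE2, a histone acetylation factor, were 3.47-fold to 3.52-fold higher. On the values as deposited NADK, UTP20, ZNF542 and PHF15 had log2 differences of 0.79, 0.63, 0.61 and 0.60, and CLEC4C stood at the 2-fold line.

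The Oct4/GFP (+) array was highest and alone for a small set of bright spots. Probes over 8-fold above each of the other 3 arrays numbered 8 in Oct4/GFP (+) and 0 in Nestin/GFP (+). On the GFP (−) arrays they numbered 2 in Oct4/GFP (−) and 0 in Nestin/GFP (−). At 2-fold these counts were 260 in Oct4/GFP (+), 110 in Nestin/GFP (+), 811 in Oct4/GFP (−) and 113 in Nestin/GFP (−). From the array alone, higher RNA and a falsely bright spot cannot be told apart for a gene with 1 such probe. The paper chose genes from its array comparison for quantitative PCR. By that method it reports PANK3, UBE2Q1 and SEL1L as over 3-fold higher in Oct4/GFP cells than in Nestin/GFP cells. PANK3, a pantothenate kinase of coenzyme A synthesis, was at 24351 in Oct4/GFP (+) and 56.5 in Nestin/GFP (+), and was under the limit in Oct4/GFP (−) and at 72.5 in Nestin/GFP (−). ANKDD1A, an ankyrin repeat protein, was at 10409 in Oct4/GFP (+) and under the limit on the other 3 arrays, so it lay at least 563-fold above its floor in Nestin/GFP (+). UBE2Q1, a ubiquitin-conjugating enzyme, was at 3433 in Oct4/GFP (+), 21.7 in Nestin/GFP (+), 38.8 in Oct4/GFP (−) and 46.0 in Nestin/GFP (−). The other 3 levels of UBE2Q1 lay close together, far under that of Oct4/GFP (+).

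SEL1L, an adaptor of endoplasmic reticulum-associated degradation, and ZNF398, a zinc finger protein, were at 2084 and 1376 in Oct4/GFP (+) and under the limit elsewhere. L3MBTL2, a Polycomb group protein, was at 1143 in Oct4/GFP (+), 58.5 in Nestin/GFP (+) and 66.5 in Nestin/GFP (−). PCDH15, a cadherin of hair cells, was at 451 in Oct4/GFP (+) as the mean of probes that disagreed, with deposited intensities of 37 and 3893. CHST6, a sulfotransferase of keratan sulfate, DNAJC17, a cochaperone, and RPUSD4, a mitochondrial pseudouridine synthase, were 4.05-fold to 6.0-fold above the nearest other array.

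On the low side the Oct4/GFP (+) array stood alone for genes that were bright on the other 3 arrays. H2AFZ, the histone variant H2A.Z, was under the limit in Oct4/GFP (+) and at 1134 in Nestin/GFP (+), 525 in Oct4/GFP (−) and 806 in Nestin/GFP (−), at least 65.7-fold lower. NOLA3, now NOP10, a protein of box H/ACA ribonucleoproteins, was at least 51.2-fold lower. PWP1, a factor of ribosomal RNA synthesis, was at 22.5 in Oct4/GFP (+) and 1003 in Nestin/GFP (+), and at 1361 in Oct4/GFP (−) and 1266 in Nestin/GFP (−). The other 3 arrays lay within 1.5-fold of each other for PWP1, so 1 low value in Oct4/GFP (+) makes its difference.

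UQCR, now UQCR11, and ATP5I, now ATP5ME, subunits of respiratory complex III and of ATP synthase, were at least 44.6-fold and at least 23.2-fold lower. NACA2, of the nascent polypeptide-associated complex, CNBP, a nucleic acid-binding protein, and PCID2, an mRNA export factor, were at least 36.9-fold, 35.9-fold and 19.1-fold lower. POLR2F, a subunit shared by the RNA polymerases, was 32.1-fold lower and ENSA, an inhibitor of phosphatase 2A, 23.0-fold lower. CD44, the hyaluronan receptor used to sort stem-like cancer cells, was at 23.5 in Oct4/GFP (+) and 392 in Nestin/GFP (+), and at 259 in Oct4/GFP (−) and 277 in Nestin/GFP (−). Its 16.7-fold difference therefore also comes from the Oct4/GFP (+) array alone.

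The Nestin/GFP (+) array stood alone by smaller margins. Among the 10 genes where it was the high array, UCHL5, a proteasome-bound deubiquitinase, had the widest margin to the nearest other array, at 48.5 in Oct4/GFP (+) and 229 in Nestin/GFP (+), and at 67 in Oct4/GFP (−) and 56.8 in Nestin/GFP (−). NDUFC1, a complex I subunit, was at 499 in Oct4/GFP (+) and 1557 in Nestin/GFP (+), and at 302 in Oct4/GFP (−) and 437 in Nestin/GFP (−). CDC7, the kinase that fires replication origins, was at 39.2 in Oct4/GFP (+) and 145 in Nestin/GFP (+), and at 52.7 in Oct4/GFP (−) and 49.8 in Nestin/GFP (−). In all 3 genes the Oct4/GFP (+) level lay near the GFP (−) levels.

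NUP107, a nuclear pore protein, was 3.66-fold lower in Oct4/GFP (+) than in Nestin/GFP (+), KCNC4, a potassium channel, 4.53-fold, CASP6, an executioner caspase, 2.72-fold, FTSJ3, a methyltransferase of ribosome assembly, 3.68-fold, SCOC, a Golgi protein of autophagy, 2.69-fold, and ALPK1, an innate immune kinase, at least 4.58-fold. Margins of Nestin/GFP (+) to the nearest other array were 2.53-fold to 3.42-fold over the 10 genes named, ID1 included. In the opposite case, Nestin/GFP (+) was the low array for C6orf106, now ILRUN, an inhibitor of antiviral responses, which was at 192 in Oct4/GFP (+) and under the limit in Nestin/GFP (+), and at 87.2 in Oct4/GFP (−) and 69.5 in Nestin/GFP (−). TRAF2, an adaptor of tumor necrosis factor receptors, was at 149 in Oct4/GFP (+) and 33.0 in Nestin/GFP (+), and at 109 in Oct4/GFP (−) and 148 in Nestin/GFP (−). BTBD9, SEZ6L2, ADAMTS10, PHF21A, SYDE1, TPM2, TM4SF1 and TMEM159 followed the same order, with 3.45-fold to at least 7.12-fold differences between the GFP (+) arrays.

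**Figure D4:**
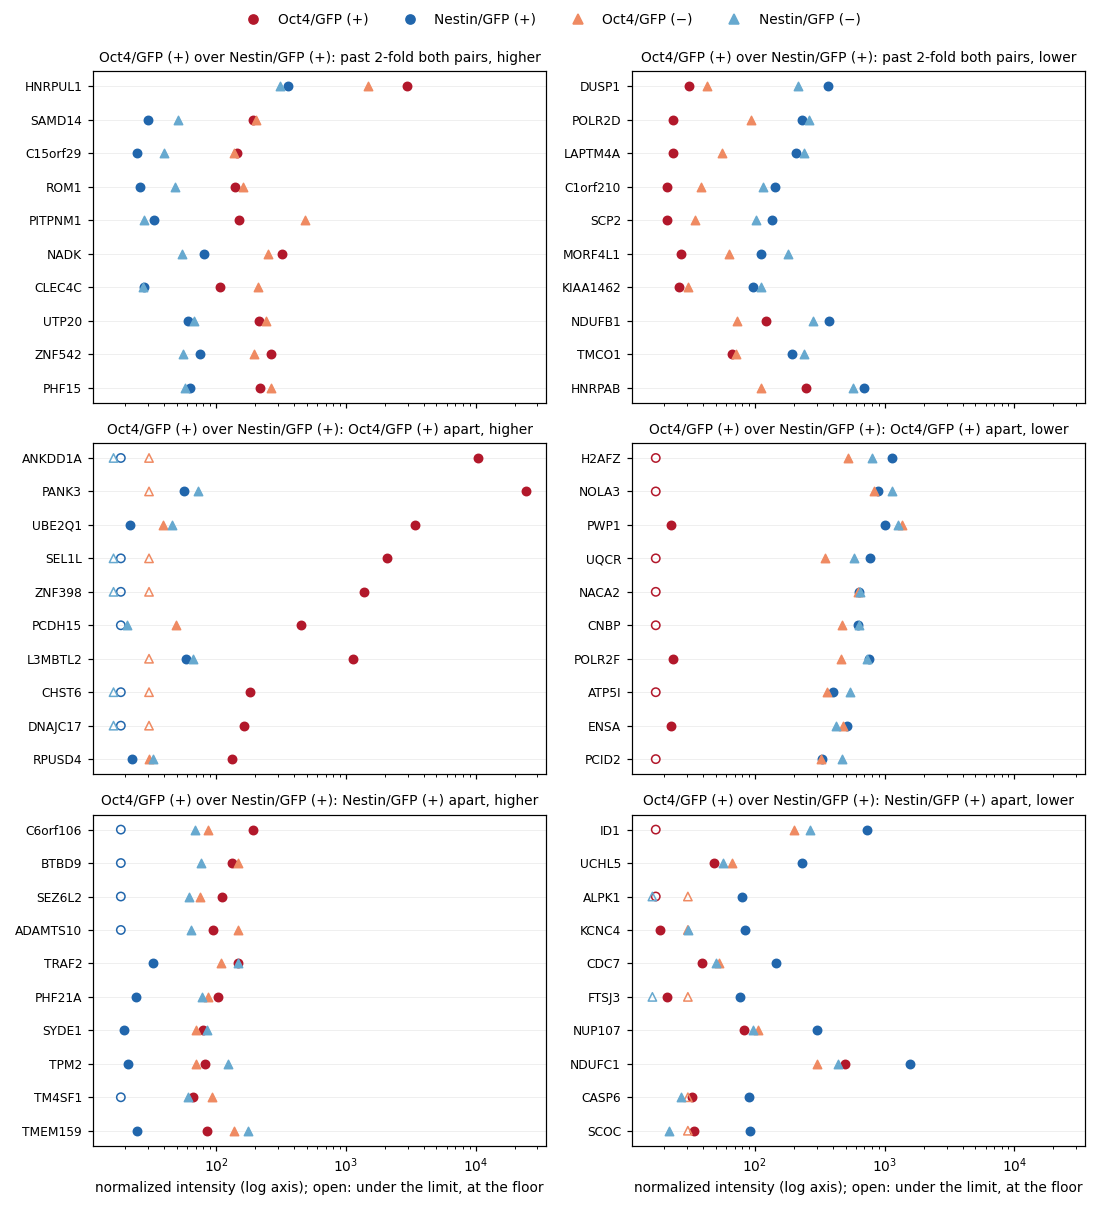
Normalized intensity (log axis) on the 4 arrays, circles for GFP (+) and triangles for GFP (−), of 10 genes in each of 6 patterns, 1 row per gene. Open symbols are at the floor of an array where the gene was under its limit. Genes were ranked by the smaller difference of both pairs (top) or the margin to the nearest other array (middle and bottom). In the top panels the Oct4 circle and the Oct4 triangle lie to the same side of their Nestin counterparts. In the middle panels the Oct4/GFP (+) circle is alone, and in the bottom panels the Nestin/GFP (+) circle is alone.

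Genes of BMP signaling differed in direction. ID1 was under the limit in Oct4/GFP (+) and at 732 in Nestin/GFP (+), and at 200.2 in Oct4/GFP (−) and 266 in Nestin/GFP (−). It was at least 42.5-fold lower in Oct4/GFP (+), and both GFP (+) arrays stood apart from the GFP (−) arrays, the Oct4/GFP (+) array by at least 11.6-fold and the Nestin/GFP (+) array by 2.75-fold in the other direction. ID3 was at 656 in Oct4/GFP (+) and 268 in Nestin/GFP (+), and at 221 in Oct4/GFP (−) and 192 in Nestin/GFP (−), 2.45-fold higher. The ID3 intensities as deposited were 471 in Oct4/GFP (+) and 463 in Nestin/GFP (+), so the ID3 difference is there only relative to the other genes. ID2 was at 53.3 in Oct4/GFP (+) and 46.8 in Nestin/GFP (+) as a mean of probes that disagreed. Its first and last probe had log2 differences of 1.17 and -0.80. ID4 was under the limit in Oct4/GFP (+) and at 19.5 in Nestin/GFP (+).

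The receptors and Smads had 7 genes that could be compared, 1 higher and 2 lower past 2-fold. Over all genes 13.3% were higher and 16.1% lower. BMPR1A, a type I receptor, was at 179 in Oct4/GFP (+) and 201 in Nestin/GFP (+). It was at 193 in Oct4/GFP (−) and 157 in Nestin/GFP (−), within 1.5-fold on all arrays. These levels come from the last probe only. The first was under the limit on all 4 arrays, with deposited intensities of 14 in Oct4/GFP (+) and -8 in Nestin/GFP (+). The paper's quantitative PCR, in contrast, found this receptor (alk3) many-fold more expressed in the Oct4 reporter population. The array therefore does not show that both populations express it equally. BMPR2, the type II receptor, was under the limit in Oct4/GFP (+) and at 47.0 in Nestin/GFP (+), at least 2.72-fold lower. SMAD1, a signal transducer of these receptors, was at 52.5 in Oct4/GFP (+) and 23.2 in Nestin/GFP (+), and at 78.0 in Oct4/GFP (−) and 17.8 in Nestin/GFP (−), higher in both pairs. SMAD5 was at least 1.85-fold higher, short of 2-fold, and SMAD4, the partner of all these Smads, at least 2.03-fold lower.

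GREM1, a secreted antagonist of BMPs, was at 62.7 in Oct4/GFP (+) and 19.0 in Nestin/GFP (+), and was under the limit in Oct4/GFP (−) and at 19.2 in Nestin/GFP (−), 3.30-fold higher. BMP2 and BMPR1B were not above the limit on any array. In the related TGF-beta pathway, TGFBR2, the type II receptor of TGF-beta, was at 109 in Oct4/GFP (+) and 24.0 in Nestin/GFP (+), and at 93.5 in Oct4/GFP (−) and 58.5 in Nestin/GFP (−), 4.55-fold higher. The differences of BMPR2, SMAD1 and SMAD4 were within 2-fold with a limit of 5 noise SD. SMAD1 was also within 2-fold before normalization.

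Stem cell and neural genes gave few measurements, and the shares past 2-fold over all genes were 13.3% higher and 16.1% lower. Of 25 pluripotency regulators with a probe, 6 could be compared, 1 was higher past 2-fold and 0 were lower. That gene was NODAL, a ligand that maintains pluripotent cells, at 75 in Oct4/GFP (+) and 27.5 in Nestin/GFP (+), and under the limit in Oct4/GFP (−) and at 35.0 in Nestin/GFP (−). KLF2, a Krüppel-like factor, was 1.96-fold higher, DNMT3B, a DNA methyltransferase, 1.36-fold higher, and TERT, the telomerase reverse transcriptase, 1.34-fold lower. Of 6 neural genes compared, 1 was lower and 0 were higher. That gene was TUBB3, a tubulin of neurons, at 28.9 in Oct4/GFP (+) and 70.5 in Nestin/GFP (+), and at 41.3 in Oct4/GFP (−) and 34.7 in Nestin/GFP (−). ZIC2, a factor of the neural plate, was 1.92-fold lower, and ENO2, the enolase of neurons, 1.67-fold higher. TUBB3 came within 2-fold with a limit of 5 noise SD and NODAL on the values as deposited.

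SOX, POU and KLF transcription factors had 4 of 11 compared genes higher and 0 lower, beside 13.3% higher and 16.1% lower over all genes, with a median difference of 0.83. Their median in the GFP (−) pair was 1.32, with 6 of 10 genes higher. POU2F2, an octamer-binding factor of B cells, was at 77.7 in Oct4/GFP (+) and 27.8 in Nestin/GFP (+), and at 154 in Oct4/GFP (−) and 56.0 in Nestin/GFP (−). KLF13, SOX12 and SOX15 were at 53.8, 39.2 and 42.5 in Oct4/GFP (+) and under the limit in Nestin/GFP (+), and they were under the limit on the GFP (−) arrays as well. All 4 came within 2-fold on the values as deposited, and the median relative to all genes turned to -0.23 when only genes above the limit on both arrays were kept.

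Immediate early genes were lower in Oct4/GFP (+) in 6 of 17 genes and higher in 0, beside 16.1% lower over all genes, with a median of -0.64. Among genes above the limit on both arrays 3 of 14 were lower, beside 11.5% over all such genes. Besides DUSP1, IER5 was under the limit in Oct4/GFP (+) and at 138 in Nestin/GFP (+), and at 42.5 in Oct4/GFP (−) and 91.5 in Nestin/GFP (−), at least 8.03-fold lower. FOS, a subunit of the AP-1 factor, was at 23.5 in Oct4/GFP (+) and 71.0 in Nestin/GFP (+), and was under the limit in Oct4/GFP (−) and at 23.2 in Nestin/GFP (−). Nestin/GFP (+) was thus the high array for FOS, and for MCL1, a survival protein of the BCL2 family, which was at 61.5 there and under the limit on the other 3. EGR1, a zinc finger factor, was under the limit in Oct4/GFP (+) and at 52.2 in Nestin/GFP (+), and under the limit on both GFP (−) arrays.

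NR4A2, an orphan nuclear receptor, was at 34.2 in Oct4/GFP (+) and 107 in Nestin/GFP (+), and at 84.3 in Oct4/GFP (−) and 34.2 in Nestin/GFP (−). It was lower in the Oct4 cells of the GFP (+) pair and higher in those of the GFP (−) pair. In the GFP (−) pair the list had 3 of 14 genes higher, 3 lower and a median of 0.21. The difference between the pairs was not tested. Relative to the median of all genes the list lay between -1.07 and -0.18 under all 15 settings, and EGR1 and MCL1 came within 2-fold with a limit of 5 noise SD.

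Oxidative phosphorylation had 18 of 56 subunits lower (32.1%) and 1 higher, beside 16.1% lower and 13.3% higher over all genes, with a list median of -0.52, beside -0.006 over all genes compared. Among subunits above the limit on both arrays 11 of 48 were lower, beside 11.5% over all such genes. The lower subunits came from complexes I, III and IV and from ATP synthase. ATP5C1, the gamma subunit of ATP synthase, was at 256 in Oct4/GFP (+) and 709.5 in Nestin/GFP (+), and at 268 in Oct4/GFP (−) and 739 in Nestin/GFP (−), with a difference of -1.47 in both pairs. NDUFA10 and NDUFA6, of complex I, were 2.34-fold and 3.04-fold lower and were lower past 2-fold in the GFP (−) pair as well. The first and the last probe of NDUFA6 disagreed, with log2 differences of -0.44 and -2.77 in the GFP (+) pair. COX8A, a subunit of cytochrome c oxidase, was at 1037 in Oct4/GFP (+) and 7420.0 in Nestin/GFP (+), and at 4964 in Oct4/GFP (−) and 6452 in Nestin/GFP (−).

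Of the 18 lower subunits, 6 had Oct4/GFP (+) as the array apart, 2 had Nestin/GFP (+) apart, 5 were lower past 2-fold in both pairs and 7 followed none of these, with some genes under more than 1 pattern. NDUFB10, of complex I, was at least 15.7-fold lower and belongs to the first and the third. COX7B, of cytochrome c oxidase, was 8.55-fold lower as a mean of probes with deposited intensities of 9 and 472 in Oct4/GFP (+), against 2119 and 1144 in Nestin/GFP (+), and without the probe apart on 1 array its difference was -0.054. CYCS, the electron carrier cytochrome c, was the 1 higher gene at 2.10-fold, and came within 2-fold on the values as deposited. Its probes above the limit on both GFP (+) arrays gave log2 differences of only 0.35 and 0.50. The remaining CYCS probe had deposited intensities of 69 in Oct4/GFP (+) and 4 in Nestin/GFP (+). The GFP (−) pair had 8 of 56 subunits lower, 5 higher and a median of -0.35.

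Mitochondrial ribosomal proteins, which make the subunits that mitochondrial DNA encodes, had 18 of 58 genes lower (31.0%) and 4 higher, beside 16.1% lower and 13.3% higher over all genes, with a median of -0.35. Fewer were lower among the genes above the limit on both arrays, 7 of 44 with a median of -0.12, and at a limit of 10 noise SD, 6 of 42 with a median of -0.020. Of the lower genes 9 had Oct4/GFP (+) apart from the other 3 arrays. MRPL12, which also binds the mitochondrial RNA polymerase, was at 17.9 in Oct4/GFP (+) and 371 in Nestin/GFP (+), and at 222 in Oct4/GFP (−) and 318 in Nestin/GFP (−). Its deposited intensities were 17 and 11 at the probes in Oct4/GFP (+), against 514 and 811 in Nestin/GFP (+), so both probes were low. MRPL51 was 13.6-fold lower in the same way, while MRPL47 and MRPS5 were lower in both pairs, by 3.39-fold and at least 6.65-fold in the GFP (+) pair.

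MRPL37 was at 2501 in Oct4/GFP (+) and 940.2 in Nestin/GFP (+), and at 1962 in Oct4/GFP (−) and 1361 in Nestin/GFP (−). MRPL49 was 5.09-fold higher with Nestin/GFP (+) as the low array, and MRPS24 was 2.32-fold higher in the GFP (+) pair and 4.0-fold in the GFP (−) pair. On the values as deposited MRPL37 came within 2-fold and MRPS24 stood at -0.085. In the GFP (−) pair the list had 11 of 51 genes lower and 5 higher, and its median was -0.43. Enzymes of the TCA cycle, by comparison, had 2 of 17 genes higher and 1 lower, with a median of 0.19. Over all genes 13.3% were higher and 16.1% lower.

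Of 24 cytosolic ribosomal proteins 6 were lower (25%, beside 16.1% over all genes) and 0 higher, with a list median of -0.33. With the brightest probe of each gene 3 were lower and 1 higher. In the GFP (−) pair 1 of 23 was higher, 0 were lower and the median was 0.23. RPL29 was at 121 in Oct4/GFP (+) and 274 in Nestin/GFP (+), and at 346 in Oct4/GFP (−) and 219 in Nestin/GFP (−). RPL22 was 2.93-fold lower, and RPL4 2.43-fold lower as a mean of probes that disagreed, with 0.61 at the brightest of them. Near-identical pseudogene copies of ribosomal protein genes can share signal with these probes. None of the 6 lower genes had 1 GFP (+) array apart from the other 3 or the same direction past 2-fold in the GFP (−) pair.

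Translation factors and tRNA synthetases had 11 of 47 genes lower (23.4%) and 5 higher (10.6%), near the 16.1% lower and 13.3% higher over all genes. Among those above the limit on both arrays 5 of 39 were lower and 5 higher. EIF4G1, the scaffold of cap-dependent initiation, was under the limit in Oct4/GFP (+) and at 182 in Nestin/GFP (+), and at 84.3 in Oct4/GFP (−) and 173 in Nestin/GFP (−), at least 10.6-fold lower. EEF1E1, of the multisynthetase complex, was at least 14.2-fold lower, and EIF2B2, an exchange factor subunit, 4.16-fold lower, both also in the GFP (−) pair. EEF1B2, an elongation factor, was at 522 in Oct4/GFP (+) and 220.5 in Nestin/GFP (+), and at 977 in Oct4/GFP (−) and 221 in Nestin/GFP (−). On the values as deposited EEF1B2 stood at -0.074.

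Splicing factors and hnRNP proteins had 13 of 45 genes lower (28.9%, beside 16.1% over all genes) and 6 higher (13.3%, the same share as over all genes), with a median of -0.46. Beside HNRPAB, PTBP1, a repressor of exons, was at 50.8 in Oct4/GFP (+) and 218 in Nestin/GFP (+), and at 56.0 in Oct4/GFP (−) and 123 in Nestin/GFP (−). SNRPC, of the U1 particle, and PRPF6, of the U5 particle, were 14.1-fold and 9.45-fold lower with Oct4/GFP (+) alone at the low end. On the other side, next to HNRPUL1, SF3B3, of the U2 particle, was 4.28-fold higher, but its deposited intensity at the first probe in Nestin/GFP (+) was -7 and without that probe its difference was -0.20.

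Lists of protein folding and degradation differed from each other. Unfolded protein response and ER-associated degradation genes had 5 of 25 higher and 4 lower, ubiquitin-conjugating enzymes 2 of 15 higher and 1 lower, and lysosome and autophagy genes 3 of 25 higher and 4 lower with a median of 0.012. Heat shock proteins had 3 of 13 genes lower (23.1%, beside 16.1% over all genes) and 0 higher, with a median of -0.63 and of -0.54 in the GFP (−) pair. HSPE1, the mitochondrial cochaperonin, was under the limit on both Oct4 arrays and at 115 in Nestin/GFP (+) and 105 in Nestin/GFP (−). HSPH1, a large heat shock protein, was at 40.0 in Oct4/GFP (+) and 99.1 in Nestin/GFP (+), and at 30.5 in Oct4/GFP (−) and 85.4 in Nestin/GFP (−). HSPA8, the constitutive Hsc70, was 14-fold lower in Oct4/GFP (+) alone, and within 2-fold at -0.94 without its probe apart on 1 array.

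Chaperonin, prefoldin and prolyl isomerase genes had 5 of 20 lower (25%, beside 16.1% over all genes) and 0 higher. CCT5, a subunit of the same chaperonin as CCT2, was at 44.0 in Oct4/GFP (+) and 245 in Nestin/GFP (+), and at 80.8 in Oct4/GFP (−) and 215 in Nestin/GFP (−). Proteasome subunits had 6 of 26 lower (23.1%) and 0 higher, with a median of -0.46. Without genes with a probe over 2-fold apart on 1 array, an alternative chosen after seeing the data, 2 of 21 were lower. PSMC4, an ATPase of the regulatory particle, was 12.7-fold lower with Oct4/GFP (+) apart, and PSMB5, the chymotrypsin-like catalytic subunit, was under the limit on both Oct4 arrays and at 86.5 in Nestin/GFP (+), at least 5.01-fold lower, and it was lower past 2-fold in the GFP (−) pair too. PSMB2 was at 941 in Oct4/GFP (+) and 2387 in Nestin/GFP (+), with 1145 in Oct4/GFP (−) and 808 in Nestin/GFP (−), and its brightest probe alone gave -0.16.

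**Figure D5:**
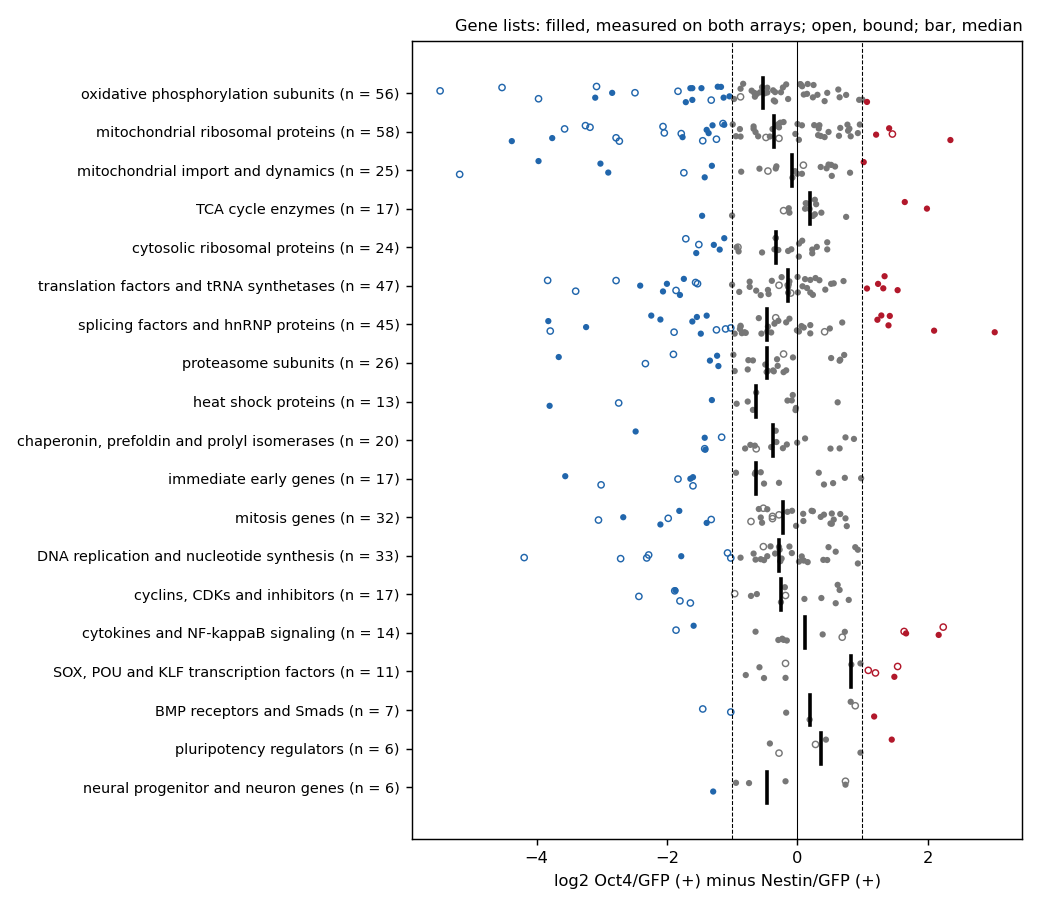
Log2 difference of Oct4/GFP (+) minus Nestin/GFP (+) (horizontal axis) of each gene compared in 19 gene lists, filled where measured on both arrays and open where a bound, with the median of each list as a bar and dashed lines at 2-fold. Oxidative phosphorylation subunits have 18 points left of the lower line and 1 right of the upper line, and SOX, POU and KLF factors have 0 left and 4 right.

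Cell cycle lists had 0 genes higher past 2-fold, beside 13.3% over all genes, but this depended on the setting. With the brightest probe 1 mitosis gene and 2 genes of the cyclin list were higher, with centring on shared probes 2 mitosis genes, 1 replication gene and 1 of the cyclin list, and at a limit of 5 noise SD 1 mitosis gene. Mitosis genes had 7 of 32 lower, DNA replication and nucleotide synthesis 7 of 33, and cyclins, CDKs and inhibitors 5 of 17, beside 16.1% lower over all genes, with medians of -0.22, -0.28 and -0.25. Among genes above the limit on both arrays these counts were 4 of 24, 1 of 26 and 1 of 11, and the medians of the mitosis and cyclin lists turned to 0.092 and 0.11. KIF20A, a kinesin of cytokinesis, was at 100.4 in Oct4/GFP (+) and 640.4 in Nestin/GFP (+), and at 451 in Oct4/GFP (−) and 709.5 in Nestin/GFP (−). TPX2, a spindle assembly factor, was 3.51-fold lower and lower in the GFP (−) pair too. The inhibitors CDKN1A and CDKN1B, which arrest the cycle, were at least 3.12-fold and at least 3.68-fold lower as well, so genes of both roles were lower.

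Cytokine and NF-kappaB genes had 4 of 14 higher and 2 lower, beside 13.3% higher and 16.1% lower over all genes. Among those above the limit on both arrays 2 of 10 were higher and the median was -0.18. CCL20, a chemokine of dendritic cells and lymphocytes, was at 87.5 in Oct4/GFP (+) and under the limit on the other 3 arrays, at least 4.73-fold higher. CXCL5, a chemokine of neutrophils, was at 58.7 in Oct4/GFP (+) and 18.5 in Nestin/GFP (+), and was under the limit in Oct4/GFP (−) and at 35.7 in Nestin/GFP (−). NFKBIA, the inhibitor that holds NF-kappaB in the cytoplasm, was at 75 in Oct4/GFP (+) and 226 in Nestin/GFP (+), and at 100 in Oct4/GFP (−) and 176 in Nestin/GFP (−). In the Notch pathway the ligand JAG1 was 2.33-fold higher and higher in the GFP (−) pair too, while NUMB, an inhibitor of Notch, was 2.43-fold lower.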

How the data were processed

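The deposited table holds 1 intensity per probe and array on a linear scale, with values below 0, so the authors subtracted background before they deposited it. The sources used here do not name the scanner software or any scaling between arrays. All 4 intensity columns were used, 1 per labelled sample, and each group is replicate 1 only. The GEO platform annotation gives 1 gene symbol to 17397 probes, several to 0 and none to 13571, and 15169 of 15240 symbols matched 1 RefSeq gene on GRCh38.p14 by name or synonym. No build is known for the probes, so no probe position is printed.

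Noise was estimated per array from the values below 0, as the square root of their mean square, and the limit was 3 SD. Arrays were quantile normalized, and probes above the limit on any array were averaged per gene on the log2 scale, with an array under its limit set to its floor. Differences past 2-fold were counted, with no test. Named genes were 10 each way in each of 3 patterns over the 4 arrays, the genes with all probes past 2-fold, and up to 6 genes a list past 2-fold. The 10 were ranked by the smaller difference of both pairs, or by the margin to the nearest other array. The genes and 52 lists were chosen with earlier results of these data known. Other scalings, limits, floors, probe rules and fold thresholds were tried. The steps were tested on simulated data. Promoters came from RefSeq and were searched for fixed letters. Python 3.11.15, numpy 2.4.6, pandas 2.3.3, statsmodels 0.14.6 and matplotlib 3.10.9 were used. The number of arrays limits the precision.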

Additional observations from a re-analysis of the deposited data

Results flagged for a closer look

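Between the GFP (+) and the GFP (−) pair, 34 of the 2853 genes above the limit on all 4 arrays passed 2-fold in opposite directions, 21 of them lower and 13 higher in the GFP (+) pair. The difference between the pairs was not tested for any of them, since each group is 1 array. ARHGEF2, an exchange factor of RhoA bound to microtubules, had a log2 difference, Oct4 minus Nestin, of -2.58 in the GFP (+) pair and 1.13 in the GFP (−) pair. FBXO21, a subunit of a ubiquitin ligase, had -2.37 in the GFP (+) pair and 1.04 in the GFP (−) pair. The other order was seen for EVX1, a homeobox factor, with 1.86 in the GFP (+) pair and -1.19 in the GFP (−) pair, and for LGTN, now EIF2D, an initiation factor, with 1.32 in the GFP (+) pair and -1.75 in the GFP (−) pair.

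Probes without a gene symbol in the annotation used here entered no comparison above. Of 13571 such probes, 3303 were compared between the GFP (+) arrays and 1034 (31.3%) passed 2-fold, 635 higher and 399 lower on Oct4/GFP (+). Their targets are not named here.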

How the results depend on the processing

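The scaling moved the split into higher and lower genes most, and the limit, the offset and the fold moved the total most. Over 2-fold there were 2972 genes, 159 higher and 2813 lower, with arrays centred on the median probe, and 2970, 159 higher and 2811 lower, on the values as deposited, so 5.35% of the genes past 2-fold were higher, against 45.2% with quantile normalization. With centring on shared probes 1313 were higher, or 62.5%. Under median centring and on deposited values APOA1BP, EEF1B2 and MRPS24 turned to -0.078, -0.074 and -0.085. With the brightest probe RPL4 turned to 0.61 and TMCO1 to 0.11, and without probes over 8-fold apart on 1 array SF3B3 turned to -0.20. A limit of 5 noise SD left 1206 genes, 601 lower, and a limit of 10 left 575, 312 higher and 263 lower. An offset of 50 without a limit left 586, 205 higher and 381 lower, and only measured genes gave 985, 509 higher and 476 lower. At 1.5-fold there were 3275, 1547 higher and 1728 lower, and at 4-fold 376, 93 higher and 283 lower. Of the alternatives chosen after seeing the data, leaving out genes with a probe over 2-fold apart on 1 array gave 1256, 637 lower, and 1 floor for all arrays gave 1145, 535 higher and 610 lower. Relative to all genes, the medians of oxidative phosphorylation, mitochondrial ribosomal and immediate early genes stayed below 0 throughout. They were -0.78, -0.50 and -0.97 under median centring and on deposited values, -0.88, -0.65 and -1.07 with shared centring, and -0.32, -0.17 and -0.18 with the offset. The mitochondrial ribosomal median was -0.14 at a limit of 10 and -0.18 with measured genes only. Apart from the scalings, limits, offset, fold and gene set, whose construction changes the counts, the cause was not tested. Calls lost among 126 named genes numbered 21 on deposited values, 13 at a limit of 5, 33 of 115 at a limit of 10 and 45 with the offset. No paired analysis was possible because each group has 1 array. Signal over background limits dim genes, since 2340 of 6466 differences are bounds.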
